A study of Mus musculus with 60 samples.

Results

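The transcripts of 7 genes of renal glucose and ammonia metabolism were followed through the kidney transcriptome of control and cKOt mice, and they fall into 2 sets by role. Pck1, Pcx, Fbp1, and G6pc encode enzymes of gluconeogenesis, and Slc38a3, Glud1, and Glul encode a glutamine transporter and 2 enzymes that release or bind ammonium. These 7 genes were picked by name, with earlier results of these data known, out of 55335 Ensembl genes in the count tables, and all 7 passed the minimum of 1 CPM (reads of a gene scaled to a common library size) in at least 1 sample that left 15546 genes. The study compared male mice of 2 genotypes. The cKOt mice were Bmal1lox/lox/Pax8-rtTA/LC1 animals, in which doxycycline switches on Cre in Pax8-expressing tubular cells and thereby deletes Bmal1 (Arntl), a core transcription factor of the circadian clock. The control mice were Bmal1 lox/lox littermates without the Cre system that drank the same doxycycline, so that exposure to the drug was shared by both groups. Doxycycline was given for 2 weeks from the age of 8 weeks, and kidneys were taken about a month later from mice fed ad libitum under 12 hours of light and 12 hours of darkness. Mice were sampled at 6 Zeitgeber times (ZT, hours after lights on), every 4 hours from ZT0, with 5 mice in each of the 12 groups and 60 mice in all.

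The kidney, along with the liver, can make glucose de novo, and it does so in the proximal tubule from lactate, glutamine, and glycerol. Pyruvate carboxylase (Pcx) and cytosolic phosphoenolpyruvate carboxykinase (Pck1) carry carbon from pyruvate to phosphoenolpyruvate, fructose-1,6-bisphosphatase (Fbp1) acts further up the pathway, and the catalytic subunit of glucose-6-phosphatase (G6pc) releases free glucose. The same cells take up glutamine through transporters that include SNAT3 (Slc38a3), and the ammonium split off from it, in part by glutamate dehydrogenase (Glud1), is used to excrete acid, while the carbon left over can enter gluconeogenesis. Glutamine synthetase (Glul) runs in the opposite direction and joins ammonium to glutamate.

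Library totals over genes ran from 17791420 to 20906706 reads, and the members had between 339 counts (the lowest Slc38a3 library) and 86885 counts (the highest Pck1 library). The labels give renal tubule, but by the study's methods RNA came from pieces of whole frozen kidney, and podocyte markers were present at a summed 252 to 369 CPM beside 8696 to 14378 CPM of proximal tubule markers. In such bulk samples, fewer cells of a type and less RNA per cell cannot be told apart. The target gene Arntl varied in control mice from 2.73 ± 0.825 CPM at ZT8 to 48.4 ± 10.2 CPM at ZT0 (SD, n = 5) and lay between 17.4 and 24.4 CPM in the 6 cKOt groups. Averaged over the 6 time points, the edgeR fit put Arntl higher in cKOt mice (log2 difference 0.71, adjusted p = 2.22e-09). The mean levels were 22.2 ± 20.4 CPM (control) and 20.7 ± 2.95 CPM (cKOt, SD, n = 30). Reads were counted over the whole of Arntl, so any transcripts that lack the deleted part would be counted as well. Whether such transcripts were present was not tested, and these counts do not show the deletion. The authors kept 5 mice per group from a larger set, in part by their distance from the other replicates, and the effect of this choice on the spread was not tested. No deposited pair of replicates agreed within sampling noise.

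The promoters of 4 members are shown because G6pc and Glul were assigned below to a rhythm lost in cKOt mice, Pck1 to a rhythm shared by both genotypes, and Pcx holds the E-box, the sequence that BMAL1 binds with CLOCK. Each run is the 250 bases before a RefSeq transcription start (GRCm38.p6), read along the gene. Capitals mark matches, on either strand, to 7 motifs: the E-box CACGTG, the variant CACGTT, the D-box as TTATGTAA or TTACGTAA, the ROR half-site TAGGTCA, the cAMP response element as TNACGTCA, and the palindromic glucocorticoid response element.
G6pc, chr11:101367466-101367715, plus strand: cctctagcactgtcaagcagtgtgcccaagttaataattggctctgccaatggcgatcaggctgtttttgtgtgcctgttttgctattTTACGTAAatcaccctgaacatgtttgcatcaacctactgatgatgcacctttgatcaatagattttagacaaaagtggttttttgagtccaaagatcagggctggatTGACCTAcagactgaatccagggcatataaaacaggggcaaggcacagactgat
Glul, chr1:153899679-153899928, plus strand: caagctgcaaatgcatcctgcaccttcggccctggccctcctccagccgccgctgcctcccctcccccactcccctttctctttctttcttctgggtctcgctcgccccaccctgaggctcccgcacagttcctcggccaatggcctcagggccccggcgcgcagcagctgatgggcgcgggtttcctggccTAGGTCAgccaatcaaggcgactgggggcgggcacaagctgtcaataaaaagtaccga
Pck1, chr2:173152823-173153072, plus strand: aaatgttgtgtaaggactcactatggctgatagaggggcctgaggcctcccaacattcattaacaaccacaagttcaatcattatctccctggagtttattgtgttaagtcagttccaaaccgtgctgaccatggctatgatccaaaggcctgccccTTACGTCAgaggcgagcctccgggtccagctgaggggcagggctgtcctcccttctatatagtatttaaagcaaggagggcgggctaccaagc
Pcx, chr19:4510222-4510471, plus strand: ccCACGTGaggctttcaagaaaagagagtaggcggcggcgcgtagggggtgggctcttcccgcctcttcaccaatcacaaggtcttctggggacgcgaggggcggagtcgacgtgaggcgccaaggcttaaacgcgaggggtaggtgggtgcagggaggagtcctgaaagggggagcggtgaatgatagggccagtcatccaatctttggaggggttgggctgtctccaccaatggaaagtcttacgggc
G6pc held a D-box TTACGTAA 162 to 155 bases before its start, a motif found in 0.113% of the 32851 promoter windows of the same length, and a ROR half-site on the opposite strand at 54 to 48 bases. The ROR half-site also occurred in Glul at 58 to 52 bases and in 2.23% of all windows. A match to TNACGTCA stood in Pck1 at 93 to 86 bases and in 2.52% of windows, and an E-box stood in the upstream one of 2 Pcx promoters at 248 to 243 bases and in 6.02% of windows. The windows of Fbp1 and Glud1 and the second Pcx window held none of the 7 motifs, and Slc38a3 had no entry. CACGTT, TTATGTAA, and the glucocorticoid element, found in 3.85%, 0.819%, and 0.00913% of windows, matched no member. These matches describe letters in a short window and say nothing of binding. The GENCODE models of G6pc and Pck1 begin inside the windows shown for them.

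Averaged over the 6 time points, Slc38a3, G6pc, and Glud1 were higher in cKOt than in control mice, Glul, Fbp1, and Pcx were lower, and Pck1 did not pass the test. In log2 units, Slc38a3 was higher by 0.49 (SE 0.097, adjusted p = 2.57e-05), G6pc by 0.42 (SE 0.063, adjusted p = 1.25e-07), and Glud1 by 0.30 (SE 0.034, adjusted p = 6.50e-11), in the edgeR quasi-likelihood fit over all genes with Benjamini-Hochberg adjustment. In the same edgeR fit, Glul fell by 0.46 (SE 0.041, adjusted p = 2.99e-14) and Fbp1 fell by 0.18 (SE 0.026, adjusted p = 3.00e-08). The log2 difference was -0.071 for Pcx (SE 0.029, adjusted p = 0.0370) and -0.15 for Pck1 (SE 0.075, adjusted p = 0.0842). Over all 15546 genes, 50.0% were called in this comparison, 26.8% higher and 23.2% lower in cKOt mice, beside 3 higher and 3 lower among the 7 members. At ZT4 the mean CPM of Slc38a3 was lower in cKOt than in control mice (66.8 against 70.2), unlike its fitted difference. For Slc38a3, G6pc, Glud1, Glul, and Fbp1 the direction was the same at all 6 time points in the fit, and each kept its call in all 17 other settings tried. The Pcx call was lost in 8 of these 17, with adjusted p up to 0.369.

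**Figure D1:**
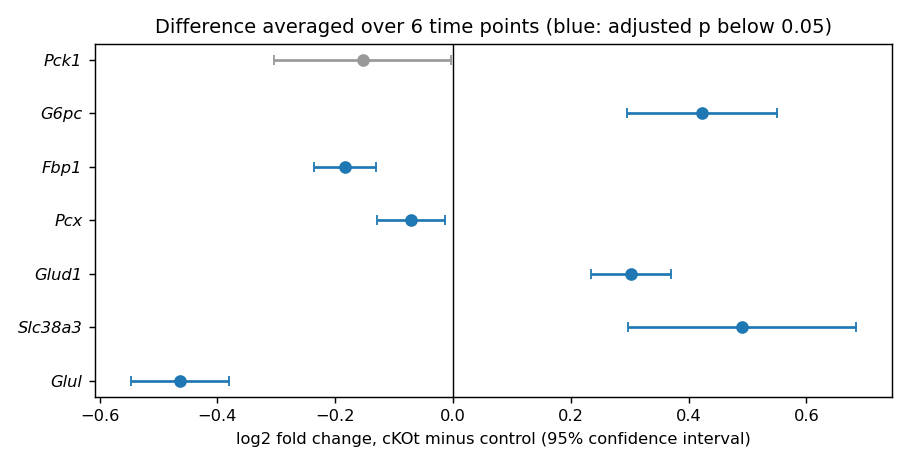
Log2 fold change of each member, cKOt minus control mice, averaged over 6 time points, with the 95% confidence interval from the fit; blue points have an adjusted p below 0.05. Slc38a3 (0.49), G6pc (0.42), and Glud1 (0.30) lie to the right of 0, Glul (-0.46) and Fbp1 (-0.18) to the left, and the grey point is Pck1.

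Levels between genes can be compared only per length of exon. In control mice, Pck1 had the highest level, with a mean of 841 CPM per kb, followed by Fbp1 with 552, G6pc with 260, Glul with 155, Glud1 with 147, Pcx with 127, and Slc38a3 with 10.6. The order of the first 3 was the same in cKOt mice (757, 485, and 347 CPM per kb), whereas Glul, at 109 CPM per kb, was there below Glud1 (183) and Pcx (120). Slc38a3 thus had the largest log2 difference at the lowest level.

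**Figure D2:**
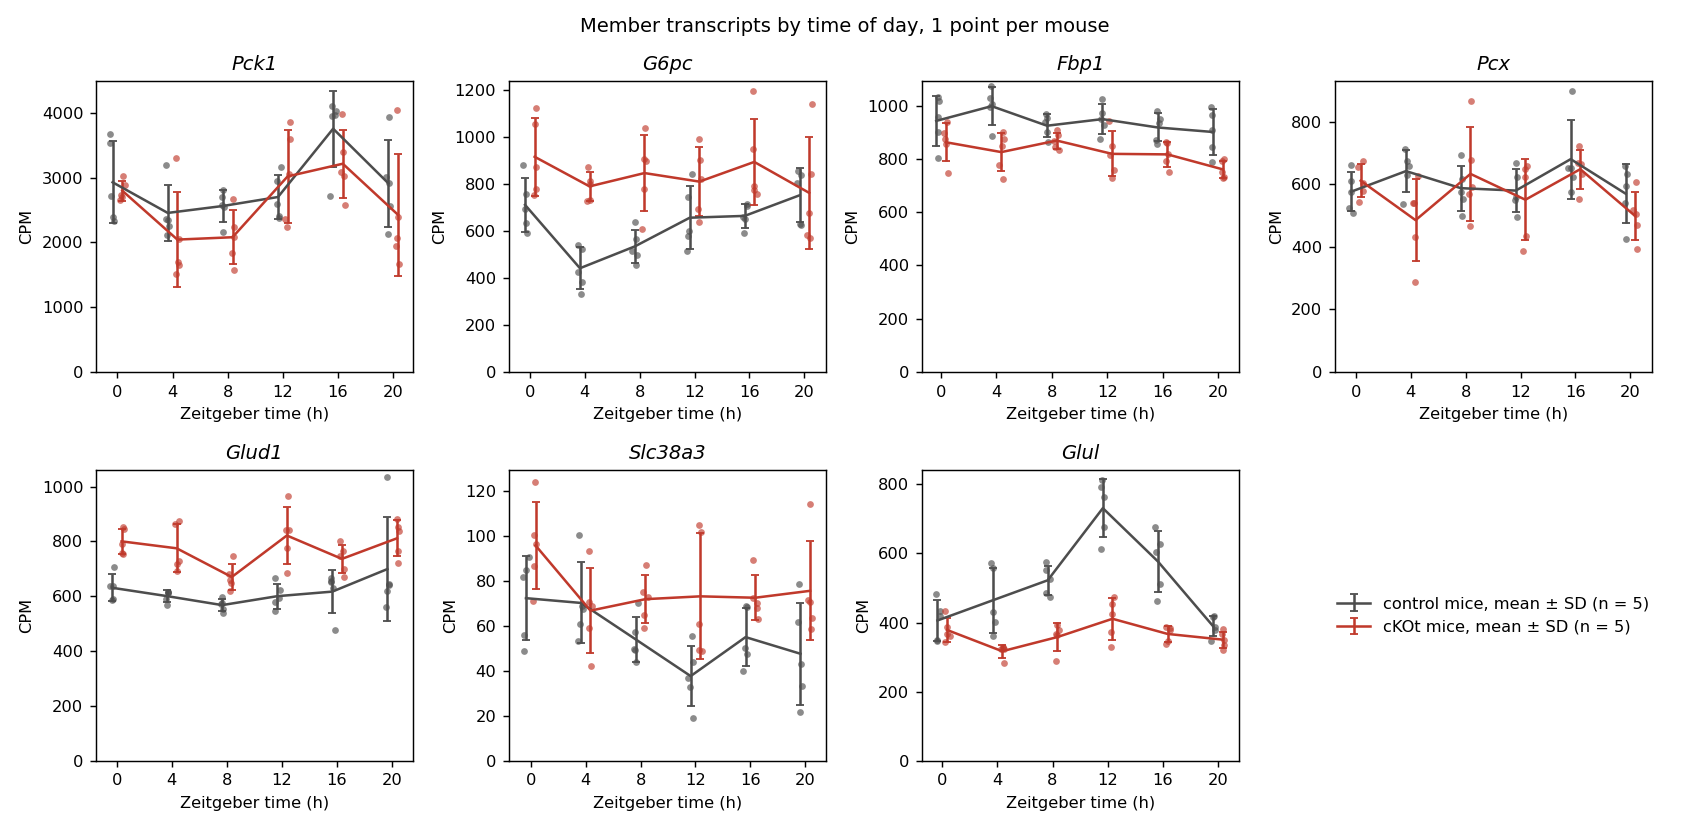
Normalized expression of each member (CPM, y axes from 0) against Zeitgeber time in hours; points are single mice, lines join group means, and bars are the SD of 5 mice, in grey for control and red for cKOt mice. Glul peaked in control mice at ZT12 (731 CPM) and G6pc had its control minimum at ZT4 (442 CPM), where the cKOt means were 411 and 791 CPM, and Pck1 had its highest mean at ZT16 in both genotypes.

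Glul, glutamine synthetase (ENSMUSG00000026473, chr1:153899944-153909723, plus strand), was lower in cKOt mice at ZT4, ZT8, ZT12, and ZT16. In control mice its mean was 406 ± 58.3 CPM at ZT0, 464 ± 94.4 at ZT4, 522 ± 42.0 at ZT8, 731 ± 84.6 at ZT12, 577 ± 87.9 at ZT16, and 389 ± 29.6 at ZT20 (SD, n = 5 each). The cKOt means were 378 ± 35.1, 317 ± 18.6, 358 ± 39.8, 411 ± 60.2, 367 ± 23.7, and 351 ± 23.3 CPM in the same order. The control level thus climbed through the day to a maximum at lights off and came back by ZT20, whereas the cKOt means stayed between 317 and 411 CPM. At ZT12 the control mice had 612, 676, 762, 792, and 813 CPM, and the cKOt mice had 329, 371, 425, 454, and 475 CPM. All cKOt mice were below all control mice at ZT4, ZT8, ZT12, and ZT16, and the 2 groups overlapped at ZT0 and ZT20. The log2 difference ran from -0.10 (SE 0.10, adjusted p = 0.565) at ZT0 through -0.47 at ZT4 and -0.57 at ZT8 to -0.82 (SE 0.10, adjusted p = 4.02e-09) at ZT12, and was -0.66 at ZT16 and -0.16 (adjusted p = 0.328) at ZT20. The test of whether the difference varied over the day (genotype by time interaction, edgeR) gave adjusted p = 0.00156, and Glul was the only member it called, against 3.08% of all genes. With the mice numbered 1 left out of all groups this adjusted p was 0.0581, with those numbered 4 left out 0.0566, and the test then has 4 mice per group. Time itself was called for Glul in control mice (adjusted p = 1.99e-10) and not in cKOt mice (adjusted p = 0.0613, and 0.0409 with DESeq2). Of the 4 calls by hour, that of ZT4 was lost without the mice numbered 2 (-0.36, adjusted p = 0.0537), and the other 3 held in all 17 other settings. Among reads on overlapping genes, the antisense neighbour Teddm2 had at most 33 counts in a library.

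Glud1, glutamate dehydrogenase (ENSMUSG00000021794, chr14:34310727-34345265, plus strand), was higher in cKOt mice at 5 of the 6 times. Control means lay between 568 ± 22.8 CPM at ZT8 and 699 ± 190 CPM at ZT20, and cKOt means between 670 ± 47.9 CPM at ZT8 and 822 ± 103 CPM at ZT12 (SD, n = 5). At ZT0 the control mice had 585, 590, 636, 638, and 706 CPM and the cKOt mice 754, 759, 791, 844, and 853 CPM. Every cKOt mouse was above every control mouse at ZT0, ZT4, ZT8, ZT12, and ZT16. The log2 difference was called at each of these 5 times, from 0.26 (SE 0.088, adjusted p = 0.0394) at ZT4 to 0.42 (SE 0.083, adjusted p = 1.08e-04) at ZT12. At ZT20 it was 0.23 (SE 0.084, adjusted p = 0.0594), and there 1 control mouse had 1034 CPM while the other 4 lay between 561 and 644 CPM. Without that mouse, a setting added after the data were seen, the ZT20 difference was 0.40 with an adjusted p of 5.55e-05 in edgeR. The mouse left out had the highest control value, so a larger difference followed from the choice. In all, ZT20 was called in 6 of 17 other settings. These include the fits without the mice numbered 1 and without both this mouse and control ZT16 replicate 1, which leave out the same mouse. Without control ZT16 replicate 1, which had the lowest Glud1 level of its group, the ZT16 difference was 0.22 and no longer called (adjusted p = 0.0734). Of 17 other settings, the calls at ZT4, ZT8, and ZT16 were each lost in 3, with the ZT4 difference at 0.17 (adjusted p = 0.330) without the mice numbered 2, whereas those at ZT0 and ZT12 held in all. The interaction with time was not called (adjusted p = 0.867). A pseudogene, Glud-ps, had at most 11 counts.

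Slc38a3, which encodes the glutamine transporter SNAT3 (ENSMUSG00000010064, chr9:107650634-107669530, minus strand), was the least abundant member. Its means in control mice lay between 72.3 ± 18.6 CPM at ZT0 and 37.7 ± 13.5 CPM at ZT12, and those of cKOt mice between 66.8 ± 18.8 CPM at ZT4 and 95.8 ± 19.5 CPM at ZT0 (SD, n = 5). At ZT12 the control mice had 19.1, 32.8, 36.9, 44.1, and 55.5 CPM and the cKOt mice 49.0, 49.2, 61.0, 102, and 105 CPM, so that 3 cKOt mice were above all control mice. This was the only time point with a call, a log2 difference of 0.99 (SE 0.24, adjusted p = 0.00144). At the other times it was 0.12 to 0.58, and 0.88 (adjusted p = 0.00968) at ZT20 without the control mouse that stood apart in Glud1. At ZT4, where the control mean was 70.2 CPM, the fitted 0.12 turned negative in 3 of 17 other settings (-0.071 with no RUVs factors). Neither the interaction (adjusted p = 0.624) nor the time effect in control mice (adjusted p = 0.0552) was called, and the latter was called in 8 of 17 other settings, among them those with no RUVs factors (adjusted p = 0.0253) and with limma-trend (adjusted p = 0.0264). The Slc38a3 groups overlapped at all 6 time points.

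G6pc, the last enzyme before glucose release (ENSMUSG00000078650, chr11:101367561-101377903, plus strand), was higher in cKOt mice at ZT4, ZT8, and ZT16. Control means were 712 ± 114 CPM at ZT0, 442 ± 89.9 at ZT4, 535 ± 71.0 at ZT8, 657 ± 134 at ZT12, 665 ± 50.0 at ZT16, and 753 ± 114 at ZT20 (SD, n = 5 each). The corresponding cKOt means were 917 ± 166, 791 ± 61.2, 847 ± 161, 811 ± 145, 895 ± 185, and 763 ± 237 CPM. The lowest control mean was that of ZT4, and the lowest cKOt mean that of ZT20. At ZT4 the control mice had 333, 384, 426, 524, and 543 CPM and the cKOt mice 726, 735, 803, 815, and 874 CPM, with no overlap. The log2 difference was 0.76 (SE 0.16, adjusted p = 5.21e-04) at ZT4, 0.69 (SE 0.16, adjusted p = 7.09e-04) at ZT8, and 0.44 (SE 0.15, adjusted p = 0.0355) at ZT16, and 0.01 (adjusted p = 0.984) at ZT20. The groups did not overlap at ZT16 either, but that call was lost without cKOt ZT16 replicate 4, a library marked for removal in the study's own sample list though deposited (0.31, adjusted p = 0.181), and in 7 of the other 16 settings. The interaction had an unadjusted p of 0.0171 in edgeR and did not pass adjustment over all genes (adjusted p = 0.202). Time was called in control mice (adjusted p = 0.00164) and not in cKOt mice (adjusted p = 0.399).

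Pck1, which makes phosphoenolpyruvate and is the classic regulated step of renal gluconeogenesis (ENSMUSG00000027513, chr2:173153048-173159273, plus strand), had the same highest and lowest hour in both genotypes. The highest means were at ZT16, 3753 ± 584 CPM (control) and 3213 ± 521 CPM (cKOt), and the lowest at ZT4, 2454 ± 426 and 2043 ± 732 CPM (SD, n = 5). At ZT16 the control mice had 2714, 3952, 3970, 4018, and 4109 CPM and the cKOt mice 2569, 3027, 3091, 3396, and 3980 CPM. The groups overlapped at all 6 time points, and no single time point was called (log2 differences of -0.31 to 0.17). The 95% confidence interval of the mean log2 difference ran from -0.30 to -0.0027 before adjustment. Time was called in cKOt mice (adjusted p = 0.0125) and not in control mice (adjusted p = 0.0637), and the interaction was not called (adjusted p = 0.770), so the time courses were not shown to differ. The cKOt call was lost without the mice numbered 3 (adjusted p = 0.0573) or 4 (adjusted p = 0.240), and time was called in control mice in 4 of 17 other settings, among them that without control ZT16 replicate 1, whose Pck1 level was 2714 CPM (adjusted p = 0.0186). That mouse is also absent from the settings without the mice numbered 1 and without both it and control ZT20 replicate 1, which are among the 4.

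Fbp1, fructose-1,6-bisphosphatase (ENSMUSG00000069805, chr13:62864753-62888282, minus strand), was lower in cKOt mice at 4 of the 6 times. Control means lay between 901 ± 85.3 CPM at ZT20 and 998 ± 70.3 CPM at ZT4, and cKOt means between 761 ± 32.4 CPM at ZT20 and 869 ± 30.2 CPM at ZT8 (SD, n = 5). At ZT4 the control mice had 885, 994, 1008, 1028, and 1075 CPM and the cKOt mice 725, 779, 848, 876, and 900 CPM, with 1 control mouse inside the cKOt range. Calls were made at ZT4, ZT12, ZT16, and ZT20, with log2 differences of -0.18 to -0.26, and the groups overlapped at every time. None of these 4 calls held in all 17 other settings: that of ZT16 was lost in 6 (adjusted p = 0.104 with no RUVs factors), that of ZT12 in 3, that of ZT20 in 2, and that of ZT4 in 1. Time was called in neither genotype (adjusted p = 0.473 in control and 0.228 in cKOt mice).

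Pcx, the mitochondrial pyruvate carboxylase (ENSMUSG00000024892, chr19:4510472-4621752, plus strand), had means of 606 ± 87.3 CPM (control) and 571 ± 117 CPM (cKOt, SD, n = 30). The lowest group was cKOt mice at ZT4, with 286, 433, 539, 541, and 627 CPM against 536, 628, 660, 673, and 713 CPM in control mice. No time point was called (log2 differences of -0.18 to 0.07), but ZT4 was with library batch in place of the RUVs factors (-0.44, adjusted p = 0.0381), ZT20 was without control ZT20 replicate 1 (-0.22, adjusted p = 0.0492), and the mean difference was not called without control ZT16 replicate 1 (-0.065, adjusted p = 0.0606). Time was called in cKOt mice (adjusted p = 0.0367), a call lost in 5 of 17 other settings (adjusted p up to 0.188), and not in control mice (adjusted p = 0.556). The antisense neighbour Lrfn4 had at most 46 counts.

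Over the 42 combinations of member and time point, 17 were called. Glud1 was the only call at ZT0, where 12.1% of all genes were called. At ZT4 (12.5% of all genes) G6pc, Fbp1, Glud1, and Glul were called, at ZT8 (19.9%) G6pc, Glud1, and Glul, at ZT12 (21.0%) Fbp1, Glud1, Slc38a3, and Glul, and at ZT16 (19.8%) G6pc, Fbp1, Glud1, and Glul. Fbp1 was the only call at ZT20, against 13.8% of all genes, and without the control mouse with the high Glud1 level there were 4. The effect of time was called in control mice for G6pc and Glul, against 30.6% of all genes, and in cKOt mice for Pck1 and Pcx, against 26.6%. In every member and genotype, groups that were neighbours in the order of the 6 means overlapped in their ranges. The highest and lowest groups did not overlap for G6pc in control mice (ZT20 and ZT4), for Fbp1 in cKOt mice (ZT8 and ZT20), and for Glul in control (ZT12 and ZT20) and cKOt mice (ZT12 and ZT4). These groups were picked as the extremes of 6 means of the same values, which favours a gap, and the share over all genes was not computed. In cKOt mice, time itself was not called in edgeR for Fbp1 (adjusted p = 0.228) or Glul (adjusted p = 0.0613).

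**Figure D3:**
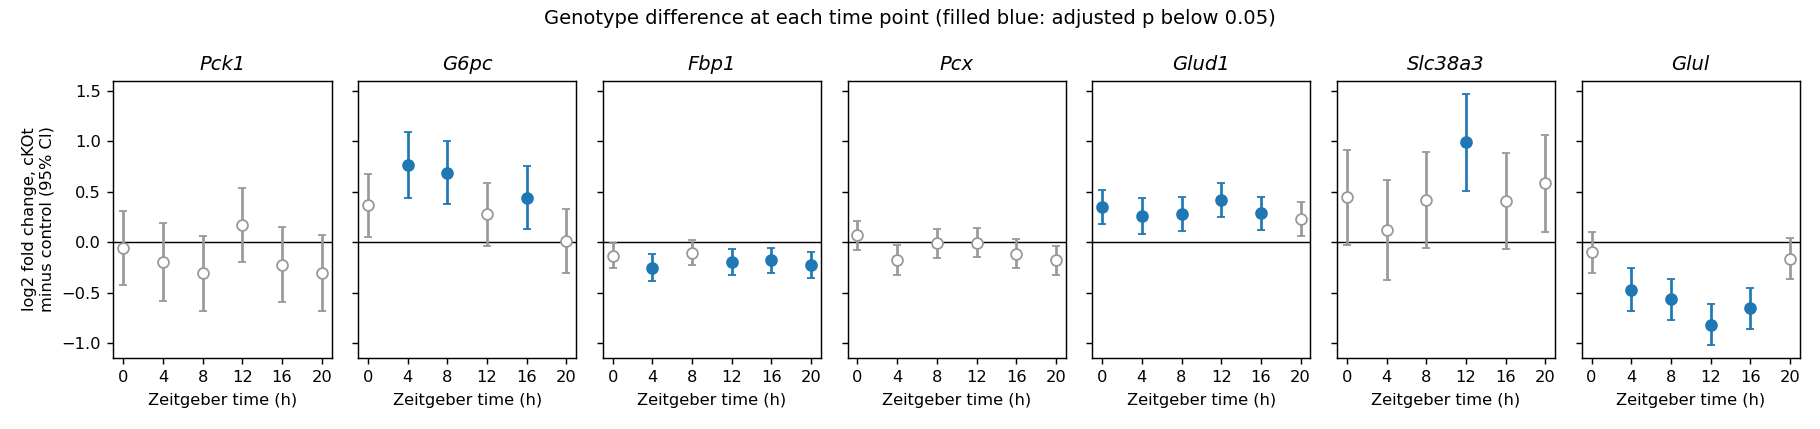
Log2 fold change (cKOt minus control mice) with its 95% confidence interval at each Zeitgeber time in hours; filled blue points have an adjusted p below 0.05. Glul was lowest at ZT12 (-0.82) and near 0 at ZT0, G6pc was highest at ZT4 (0.76) and at 0.01 at ZT20, and Glud1 stayed between 0.23 and 0.42.

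Daily rhythms were described with the 5 linear models of the dryR method, which assign a transcript when 1 model takes a Bayesian information criterion (BIC) weight of at least 0.65. G6pc (weight 0.970) and Glul (0.919) were assigned to the model of a rhythm in control mice that is lost in cKOt mice, which took 6.25% of all genes. The edgeR test of the genotype by time interaction was called for Glul and not for G6pc (adjusted p = 0.202). By that test the G6pc time courses were not shown to differ. The G6pc rhythm had a peak-to-trough amplitude of 0.62 log2 units in control mice with a peak at ZT18.4, and an amplitude of 0.013 in cKOt mice. For Glul the amplitude was 0.83 with a peak at ZT11.8 in control mice, against 0.17 in cKOt mice. The control peaks of these 2 transcripts therefore differed, with G6pc in the dark phase and Glul at lights off. Pck1 (weight 0.953) and Glud1 (0.927) were assigned to the model of the same rhythm in both genotypes, which took 25.2% of all genes, with amplitudes of 0.50 and 0.19 and peaks at ZT16.8 and ZT20.6. For Glud1 the main edgeR test of time was called in neither genotype (adjusted p = 0.112 in control and 0.170 in cKOt mice). Its amplitude in control mice was 0.21, and without the mice numbered 1 it was 0.11 with a weight of 0.651. Fbp1, Pcx, and Slc38a3 reached no weight of 0.65 and were left unassigned, like 28.7% of all genes. In other settings Pcx was assigned to no rhythm in some (weight 0.924 with no RUVs correction) and to a shared rhythm without the mice numbered 3 (0.876). Fbp1 was assigned to a shared rhythm in some and to no rhythm without the mice numbered 1 (0.776). Slc38a3 was assigned in some to a rhythm lost in cKOt mice. Glud1 was left unassigned when no RUVs correction was made (weight 0.578) and without the mice numbered 3 (0.635), and the other 3 assigned members kept their model in all 12 other settings. Among these settings, a weight threshold of 0.5 or 0.8 reuses the same fit, so its outcome follows from the weights given.

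The genes that surround the members in their pathways were taken from lists that had been written with earlier results of these data known, and they are given by counts and medians. Over all genes, 26.8% were called higher and 23.2% lower in cKOt mice, and 3.08% had a called interaction. Of 19 gluconeogenic partner enzymes and carriers, 4 were higher (Pck2, Pgam1, and Got2 among them), 13 lower, and 2 not called in cKOt mice, and their median log2 difference was -0.12 beside 0.012 for all genes. With DESeq2 size factors, 2 were higher and 14 lower. The largest differences were those of Mpc1, a subunit of the mitochondrial pyruvate carrier (-0.47, SE 0.047), and Pgam1, a phosphoglycerate mutase (0.37, SE 0.026). Slc37a4, which carries glucose 6-phosphate to G6pc in the endoplasmic reticulum, fell from 270 ± 25.1 to 239 ± 26.0 CPM (SD, n = 30; log2 difference -0.17, adjusted p = 4.56e-06). Gapdh, Pgk1, Pgam1, and Eno1 have processed pseudogenes, and reads that align to more than 1 place were not counted, so their levels are uncertain.

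Of 15 regulators of gluconeogenesis, 4 were higher (Ppargc1a, Insr, and Irs1 among them), 6 lower, and 5 not called, with a median log2 difference of -0.05. Sik1, a salt-inducible kinase that restrains CRTC coactivators, fell from 68.6 ± 15.5 CPM (control) to 34.1 ± 8.07 CPM (cKOt, SD, n = 30; log2 difference -0.98, SE 0.051, adjusted p = 2.19e-23). Klf15, a transcription factor of amino acid catabolism, was lower as well (log2 difference -0.28, SE 0.042). Foxo1, Crtc2, Creb1, Cebpb, and Irs2 were not called, and Cebpb was barely detected (33 counts at most).

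For glutamine and ammonia handling, 15 of 17 listed genes were retained, since Gls2 and Slc25a18 reached only 12 and 4 counts. Of these, 5 were higher (Slc25a22, Slc1a1, Slc7a8, and Car2 among them), 6 lower (Ogdh, Slc6a19, Gpt2, Slc9a3, Car4, and Ptk2b), and 4 not called, with a median log2 difference of 0.01, close to that of all genes. Slc25a22, a mitochondrial glutamate carrier, was higher by 0.54 (SE 0.082, adjusted p = 1.32e-07), with means of 21.2 ± 6.23 CPM (control) and 30.2 ± 10.9 CPM (cKOt, SD, n = 30). The ammonia channel transcripts Rhbg and Rhcg had log2 differences of 0.10 and 0.07 and were not called. Slc9a3, the apical sodium-hydrogen exchanger that also secretes ammonium, was the only gene of this list with a called interaction (adjusted p = 0.00194).

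The 15 glycolytic counterparts comprised enzymes of glycolysis, their regulators, and pyruvate dehydrogenase kinases. Of these, 4 were higher (Pfkl, Pklr, Pfkfb2, and Pdk1), 4 lower (Pfkp, Pfkfb3, Pfkfb4, and Pdk2), and 7 not called, with a median of -0.007. Pklr, the liver and red cell pyruvate kinase, was higher by 0.33 (SE 0.053) and Pdk1, a pyruvate dehydrogenase kinase, by 0.26 (SE 0.030). Pdk4, another such kinase, was not called for the mean (-0.07, adjusted p = 0.673) and had a called interaction (adjusted p = 1.01e-04).

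**Figure D4:**
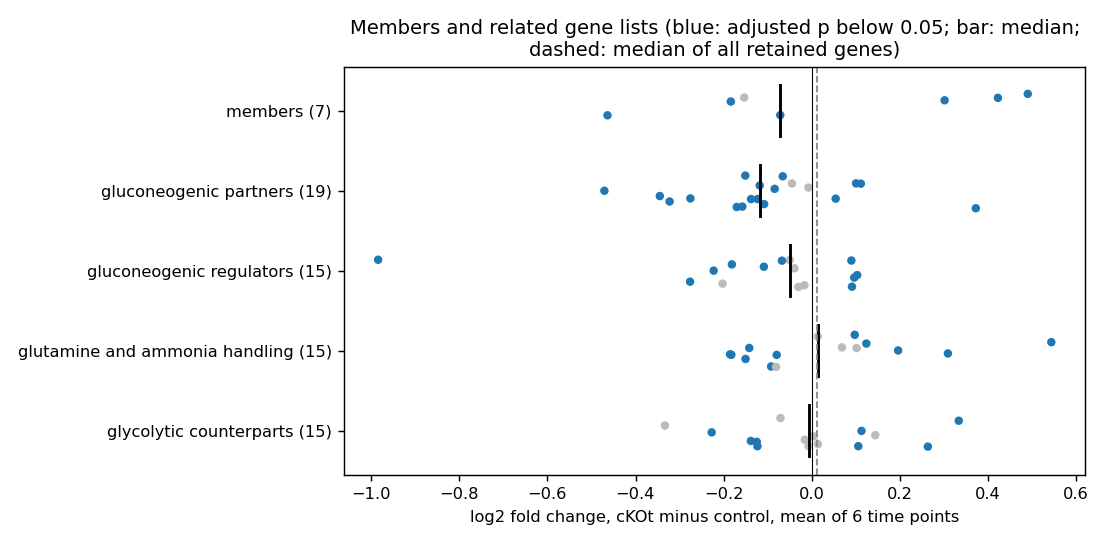
Log2 fold change (cKOt minus control mice, mean of 6 time points) of the 7 members and of the retained genes of 4 related lists, 1 point per gene; blue points have an adjusted p below 0.05, black bars are list medians, and the dashed line is the median of all genes at 0.012. Members lie on both sides of 0, the partner enzymes lie mostly below it (median -0.12), and the single point near -1 is Sik1 (-0.98).

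For each member, the transcripts with the most similar course over the 12 group means (up to 3 given here) were sought among 10858 genes with a mean of at least 5 CPM, with likeness given as Pearson r over these 12 groups. The group means share libraries and normalization, and r is a description. Glul was followed by Ppcdc (0.976), Slc37a4 (0.963), and Invs (0.955), and Glud1 by Rpl23a (0.968), which has processed pseudogenes and is uncertain, and Trim13 (0.959). Slc37a4 also stood among the partner genes above. G6pc was closest to Cry1 (0.939), a clock repressor, then Baiap2l1 (0.926) and 2410131K14Rik (0.914), and Pck1 to Dnaja1 (0.909), Slc25a25 (0.902), and Clk3 (0.893). Fbp1 was followed by Lgmn (0.958) and Igf2r (0.955), Pcx by Gsk3a (0.960), Lonp1 (0.959), and Samd4b (0.956), and Slc38a3 by Lynx1 (0.946), Jag1 (0.925), and Impa2 (0.925).

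Mice of the same genotype and hour also differed from one another, and some members varied together among them. After subtraction of group means from log2 CPM, 21 pairs of members were correlated over 60 mice, with permutation of mice within groups (100000 resamples, two-sided) and adjustment over the 21 pairs. The main values carried no RUVs correction. The share of pairs passing among other genes was not computed, so the correlations are not shown to be particular to the members. Pck1 varied with Slc38a3 (r = 0.67, rho = 0.64, permutation p = 1e-05 for each, the smallest these permutations can give, adjusted p = 2.1e-04) and with Glud1 (r = 0.59, rho = 0.60, permutation p = 2e-05 for r and 4e-05 for rho, adjusted p = 2.1e-04 and 4.2e-04). Fbp1 varied with Pcx (r = 0.49, rho = 0.43, permutation p = 4.0e-04 and 0.00288, adjusted p = 0.0028 and 0.0202). These 3 pairs kept an adjusted permutation p below the threshold after batch means were also subtracted (r = 0.65, 0.56, and 0.53) and without the 2 mice farthest from the median of the first gene (r = 0.63, 0.59, and 0.50). Glud1 and Slc38a3 gave r = 0.47 (rho = 0.41, permutation p = 0.00624 and 0.00446, adjusted p = 0.0328 and 0.0234), which did not pass without the 2 farthest mice (r = 0.35, adjusted permutation p = 0.0968). Pck1 and Fbp1 gave r = 0.36 (rho = 0.39, permutation p = 0.0113 and 0.0074, adjusted p = 0.0474 and 0.0311), which did not pass once batch means were subtracted (r = 0.34, adjusted permutation p = 0.0601) or without cKOt ZT16 replicate 4 (r = 0.35, adjusted permutation p = 0.0587). Pcx and Glud1 gave r = -0.38 (rho = -0.26, permutation p = 0.0142 and 0.0776, adjusted p = 0.0498 and 0.204) and did not pass by r in any of the 4 other settings. With RUVs-corrected values this pair changed sign and passed by rho only (r = 0.25, rho = 0.37, adjusted permutation p = 0.106 and 0.0179). In that setting Pck1 and Pcx, not called in the main tests (r = 0.29), passed by both measures (r = 0.52, rho = 0.47, adjusted permutation p = 6.3e-04 and 0.00218). Fbp1 and Glud1 passed there by rho only (rho = 0.36, adjusted permutation p = 0.0276). No pair that includes G6pc or Glul passed in the main permutation tests, where their r lay between -0.19 and 0.29. In other settings 2 such pairs passed by rho and not by r: Pcx and Glul with batch means subtracted (rho = 0.35, adjusted permutation p = 0.0478 for rho and 0.0601 for r), and G6pc and Fbp1 with RUVs-corrected values (rho = 0.33, adjusted permutation p = 0.0460 for rho and 0.0718 for r).

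**Figure D5:**
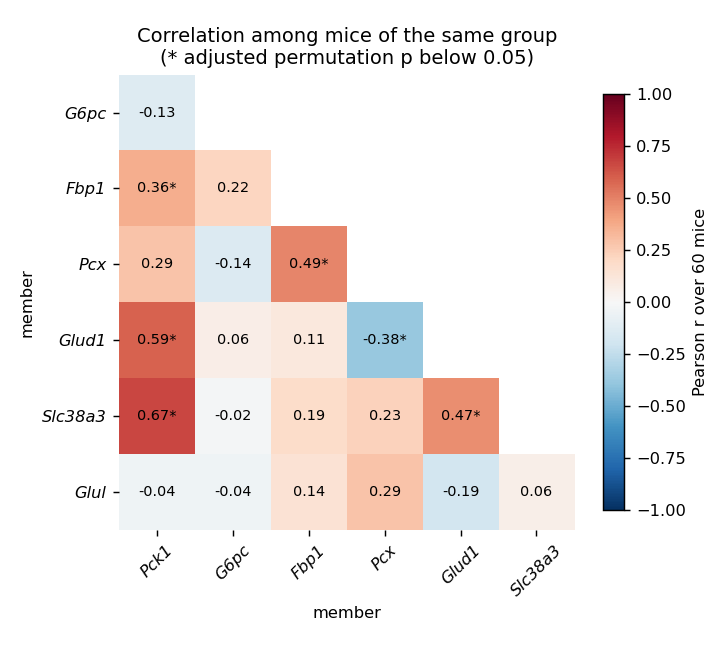
Pearson r of each pair of members over 60 mice after subtraction of group means from log2 CPM; both axes list the members, colour runs from -1 (blue) to 1 (red), and an asterisk marks an adjusted permutation p below 0.05. The highest values join Pck1 with Slc38a3 (0.67) and Glud1 (0.59), and the rows and columns of G6pc and Glul hold no asterisk.

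Markers of cell types were called between the genotypes as well, as were 50.0% of all genes (26.8% higher and 23.2% lower in cKOt mice). The part of these markers in the results above was not tested. Of 7 proximal tubule markers, 3 were higher and 3 lower in cKOt mice (summed level 9770 to 14207 CPM in controls and 8696 to 14378 CPM in cKOt animals), and the largest differences were those of Miox (-0.74) and Slc13a3 (-0.66). In the 6 markers of the proximal straight segment, 4 were higher and 2 lower (summed 4018 to 6904 and 3199 to 5597 CPM), led by Acsm3 (-0.69) and Cyp7b1 (0.48). The thick ascending limb list had 2 of 4 higher and 1 lower (3784 to 7204 and 4630 to 6391 CPM), led by Umod (-0.41) and Cldn16 (0.12), and the distal tubule and collecting duct list had 3 of 7 higher and 1 lower (1066 to 1522 and 1173 to 1612 CPM), led by Slc4a1 (-0.32) and Atp6v1g3 (0.18). Of 4 podocyte markers, 1 was higher (Wt1, 0.11), with sums of 252 to 369 and 261 to 350 CPM. All 4 endothelial markers (268 to 329 and 219 to 311 CPM, led by Emcn, -0.13, and Cdh5, -0.11), all 4 stroma markers (46.3 to 160 and 54.7 to 137 CPM, led by Col1a1, -0.37, and Col3a1, -0.25), and all 4 leukocyte markers (117 to 231 and 86.4 to 162 CPM, led by Lyz2, -0.35, and Cd74, -0.34) were lower. With DESeq2 size factors, 2 of the proximal tubule markers were higher and 4 lower, 1 distal marker was higher and 1 lower, and no podocyte marker was called. The stroma markers called lower were 2 with no RUVs factors and 1 without the mice numbered 2. No marker was at 0 in all mice of a genotype. Among 12 core clock genes, 5 were higher (Arntl among them), 6 lower, and 1 not called, with Npas2 (3.45) and Ciart (-2.63) at the extremes. A called interaction was found for 10 of them, against 3.08% of all genes.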

How the data were processed

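RNA-Seq was done on kidneys of 60 male mice in 12 groups of 5 (2 genotypes by 6 Zeitgeber times), grouped by the titles. Per the labels and the study's methods, the authors trimmed stranded poly(A) single reads with cutadapt 1.8, aligned them to GRCm38 with STAR 2.5.3a, and deposited raw read counts per Ensembl gene from HTSeq 0.9.1; the strand setting of the counting is not given in the sources used here. Reads outside genes (5.19% to 7.87%) and ambiguous reads (0.708% to 0.927%) stayed out of library sizes. Gene symbols came from GENCODE (55154 of 55335 genes), and promoters from RefSeq (6 of 7 members).

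After a filter that kept genes reaching 1 CPM in any sample, counts were fitted in edgeR 4.0.16 (R 4.3.3) by the quasi-likelihood test with TMM scaling, 12 group means, and 2 RUVs factors of unwanted variation, with Benjamini-Hochberg adjustment over all 15546 genes and a threshold of 0.05. CPM values printed are TMM-scaled without RUVs correction. The RUVs and dryR steps were rewritten from their published description, with a prior count of 2 for log values and a period of 24 h, and amplitudes are peak to trough. Correlations used Python 3.11.15 with scipy 1.17.1. The scripts were tested on simulated data. Named genes were all members, the 2 genes of each list with the largest called change, any gene needed to say what a small count holds, the 3 most similar genes per member, and Arntl, except that some genes are not reported here; the 6 lower genes of the glutamine list were named after their values were seen. The members and lists were chosen with earlier results of these data known. Alternatives covered DESeq2 1.42.0, limma 3.58.1, scaling, filters, RUVs, library batch, a replicate block, and single mice left out; 3 of these, without 1 or both of 2 control mice that stand apart, were chosen after seeing the data. Nothing says that the mice of a group shared or did not share litters, and p-values measure the spread between these mice.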

Additional observations from a re-analysis of the deposited data

Results flagged for a closer look

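In 8 of 84 groups of 5 mice, the highest or lowest mouse lay apart from the other 4 by Dixon's 95% criterion, where chance gives about 1 in 20 groups, or 4.2. The control mouse numbered 1 at ZT16 was apart in 3 members, with 2714 CPM of Pck1 (others 3952 to 4109), 899 CPM of Pcx (others 577 to 653), and 477.3 CPM of Glud1 (others 631 to 667). The control mouse numbered 1 at ZT20 had 1034 CPM of Glud1 (others 561 to 644), and the control mouse numbered 5 at ZT4 had 3195 CPM of Pck1 (others 2116 to 2364). Among cKOt mice, number 1 at ZT20 had 114 CPM of Slc38a3 (others 58.6 to 71.4), number 4 at ZT4 had 284 CPM of Glul (others 323 to 328), and number 2 at ZT8 had 289.7 CPM of Glul (others at least 364).

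The Glul difference between genotypes varied with the hour by edgeR's test of the interaction itself (adjusted p = 0.00156), from -0.10 at ZT0 to -0.82 at ZT12 on the log2 scale.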

How the results depend on the processing

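G6pc, Fbp1, Glud1, Slc38a3, and Glul kept the direction and the call of their mean difference in all 17 alternatives. Pcx, called in the main fit, was not called with no filter (-0.0745), no RUVs factors (-0.0912), library batch in place of RUVs (-0.1034), without control ZT16 replicate 1 (-0.06515), or without both control mice that stood apart (-0.06455), and over the fits that leave out 1 replicate number its value ran from -0.1074 to -0.03768. Over those fits Pck1 ran from -0.2359 (called, adjusted p = 0.01355, without the mice numbered 2) to -0.06645. The cause of these changes was not tested. Members called at ZT20 numbered 2 with DESeq2, limma-trend, or the replicate block, 4 without control ZT20 replicate 1, and 3 without both control mice. Over the fits that leave out 1 replicate number they numbered 0 to 2. At ZT16, 1 was called with no RUVs factors and 2 with library batch, and 2 to 4 over all fits with mice left out, as at ZT4. The interaction count ran from 0 to 1 and the cKOt time effect from 0 to 3 with replicates left out, and the cKOt time effect was 1 with no RUVs factors or with library batch. The control time effect was called for 4 members with the replicate block and without both control mice. The replicate numbers do not pair the mice (mean residual correlation 0.0043 within and -0.0010 between numbers); as a hint only, the replicate block changed no other count by over 1.5 times.

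Sign changes fell on values that were not called, apart from Pcx and Glud1, whose correlation was 0.2532 with RUVs-corrected values. G6pc at ZT20 was -0.01435 with limma-trend, -0.07992 without control ZT20 replicate 1, -0.08547 without both control mice, and -0.202 to 0.1613 with replicates left out. Pcx at ZT8 was 0.005245 with no filter, 0.108 with no RUVs factors, 0.09547 with library batch, 0.00144 and 0.001539 without either control mouse, 0.01777 without both, and -0.1214 to 0.04397 with replicates left out, and at ZT12 it ran from -0.0643 to 0.06267. Slc38a3 at ZT4 was -0.07128 with no RUVs factors, -0.08525 with library batch, and -0.04861 to 0.2663 with replicates left out, and Pck1 at ZT0 ran from -0.1466 to 0.02036. Without RUVs correction 1 member was assigned a shared rhythm, and the negative correlation was called in 0 of its 4 alternatives. Over all genes, the interaction was called for 479, for 263 with no RUVs factors, 312 with library batch, 689 with the DESeq2 test, and between 233 and 533 with mice left out. The median log2 difference of all genes was 0.012 with TMM and 0.0022 with DESeq2 size factors.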
